A study of Mus musculus with 8 samples.

Results

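The nuclear genes for the subunits of oxidative phosphorylation were followed across naive mouse CD4 T cells and 3 kinds of Th17 culture. They were taken by gene symbol from the count table: the Ndufa, Ndufb, Ndufc, Ndufs and Ndufv genes with Ndufab1 for complex I, Sdha to Sdhd for complex II, the Uqcr genes for complex III, Cycs for cytochrome c, the Cox4i to Cox8 genes and Ndufa4 for complex IV, and the Atp5 genes for complex V. Symbols of Ndufaf assembly factors were left out. Of 86 matching symbols among 23366 genes, 79 had at least 10 counts summed over the 8 libraries and form the set. Complex I has 35 of them, complex II 4, complex III 8, complex IV 14 and complex V 17, and Cycs is the single cytochrome c gene. The 7 symbols below 10 counts were Ndufs5 with 3 counts, Cox4i2 with 6, Cox6a2 and Ndufa4l2 with 1 each, and Cox7b2, Cox8b and Cox8c with no count.

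Oxidative phosphorylation passes electrons from NADH through complex I, or from succinate through complex II, to ubiquinone, then through complex III, cytochrome c and complex IV to oxygen. Complexes I, III and IV pump protons, and complex V, the ATP synthase, uses the proton gradient to make ATP. Most subunits are encoded in the nucleus and a small hydrophobic core in mitochondrial DNA. Resting T cells rely largely on respiration, and activated T cells raise both glycolysis and mitochondrial mass as they grow and divide.

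The cells came from spleen and lymph nodes of C57BL/6 mice, and each group had 2 libraries. The biglycan libraries carry the numbers 7 and 8 in their titles but 5 and 6 in the table columns, and were matched through the library numbers that both the titles and a deposited table give. The naive group was CD4 T cells with no treatment. For the Th17 group such cells were stimulated with antibodies to CD3e and CD28 and kept 3 days in TGFb and IL-6. The remaining groups had the same activation and cytokines with PAM3CSK4, a synthetic lipopeptide that activates TLR2, or with biglycan, a matrix proteoglycan that can also signal through TLR2. The series text gives 2 ug/ml for PAM3CSK4 and does not say whether that dose also holds for biglycan. Naive cells therefore differ from every culture in activation, cytokines and time in culture at once, and these cannot be told apart. Nothing in the labels says whether the paired libraries came from separate mice or cultures, so a p-value here reflects the spread of library pairs that may be no more than technical. In bulk RNA, fewer cells of a type and less RNA per cell cannot be told apart, and every level below is relative to the other transcripts of its library.

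Gene counts per library ran from 7012244 to 12533045, with the naive libraries at the low end. Reads aligned to several places and therefore not counted made up 73.5 to 77.1% of the count table, and reads counted to genes 11.7 to 13.7%. The deposited share of reads assigned to mitochondrial RNA was 12.0 and 9.87% in naive cells and 15.7 and 16.0% in plain Th17 cultures; PAM3CSK4 libraries had 14.3 and 14.7%, biglycan libraries 15.9 and 16.1%. The 13 subunit genes of mitochondrial DNA were not among the counted genes, so their levels are not analysed here. Summed over 5 Th17 markers, CPM (counts scaled to a common library total, adjusted by the trimmed mean of M-values, TMM) was 0.149 to 0.253 in naive cells, 772 to 930 in Th17 cultures, 1207 to 1342 with PAM3CSK4 and 892 to 895 with biglycan. The 4 naive T cell markers summed to 4411 and 4562 CPM in naive cells and to 1906 to 2282 in the cultures. The 4 CD4 T cell markers summed to 2666 and 2684 CPM in naive cells and to 1446 to 1532 CPM in the cultures, and all 4 were called lower in Th17 than in naive cells. Markers of B cells summed to at most 3.29 CPM and of myeloid cells to at most 10.3 CPM, and the 3 red cell markers had no count. CD8 T and NK cell markers summed to 20.7 and 21.7 CPM in naive cells and to 4.35 to 7.24 CPM in the cultures. The part of these other cells in the differences below was not tested.

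Promoters of these genes are shown because they are known for a few shared motifs, those of NRF1, of ETS factors such as GABP, and of YY1. RefSeq windows around the annotated start (GRCm38.p6) were matched for 68 of the 79 genes, as 74 windows. The letters searched on both strands were GCGCA and GCGC separated by any 1 base for NRF1, CCGGAAG for ETS factors and AANATGGCG for YY1. The NRF1 letters were found in 22.97% of the subunit windows, against 10.42% of the windows of all tested genes and 4.603% of all windows. The ETS letters were in 21.62%, against 18.2% and 8.858%, and the YY1 letters in 16.22%, against 5.255% and 2.38%. At least 1 of the 3 was present in 52.7% of the subunit windows and in 29.99% of those of tested genes. In the 6 windows printed here, from bases before the start into the transcript, capitals mark the matches. The first 4 belong to genes that were higher in Th17 cultures and carry NRF1 letters (Ndufa6), NRF1 and ETS letters (Sdhd), ETS letters (Cox6b1) or YY1 letters (Atp5j2). Sdha, with 3 NRF1 matches, had no call, and Cycs, with no match, was lower.
Ndufa6, chr15:82354242-82354541, minus strand: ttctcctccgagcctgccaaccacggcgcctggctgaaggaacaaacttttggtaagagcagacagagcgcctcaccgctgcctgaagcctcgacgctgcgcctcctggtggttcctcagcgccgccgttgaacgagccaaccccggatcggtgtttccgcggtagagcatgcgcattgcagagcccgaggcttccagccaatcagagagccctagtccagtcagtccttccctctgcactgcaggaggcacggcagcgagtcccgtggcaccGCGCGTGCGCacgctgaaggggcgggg
Sdhd, chr9:50603800-50604099, minus strand: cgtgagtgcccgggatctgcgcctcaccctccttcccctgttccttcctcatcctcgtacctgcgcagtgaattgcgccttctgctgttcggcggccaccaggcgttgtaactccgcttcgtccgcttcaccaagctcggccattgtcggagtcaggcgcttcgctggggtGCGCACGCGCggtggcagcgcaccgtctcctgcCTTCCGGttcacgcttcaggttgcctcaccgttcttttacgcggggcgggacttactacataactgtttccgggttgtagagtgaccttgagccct
Cox6b1, chr7:30626065-30626364, minus strand: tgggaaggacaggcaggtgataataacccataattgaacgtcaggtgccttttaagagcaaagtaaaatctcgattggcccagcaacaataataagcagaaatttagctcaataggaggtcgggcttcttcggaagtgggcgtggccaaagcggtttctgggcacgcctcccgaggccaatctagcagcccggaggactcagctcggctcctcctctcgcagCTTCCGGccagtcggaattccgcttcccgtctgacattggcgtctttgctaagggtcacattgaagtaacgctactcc
Atp5j2, chr5:145191492-145191791, minus strand: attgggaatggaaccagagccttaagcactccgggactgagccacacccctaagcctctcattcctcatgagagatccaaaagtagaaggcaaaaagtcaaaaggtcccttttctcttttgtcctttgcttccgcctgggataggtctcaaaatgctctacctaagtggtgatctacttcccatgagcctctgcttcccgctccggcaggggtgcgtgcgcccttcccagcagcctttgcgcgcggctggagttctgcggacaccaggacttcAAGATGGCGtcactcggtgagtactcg
Sdha, chr13:74350191-74350490, minus strand: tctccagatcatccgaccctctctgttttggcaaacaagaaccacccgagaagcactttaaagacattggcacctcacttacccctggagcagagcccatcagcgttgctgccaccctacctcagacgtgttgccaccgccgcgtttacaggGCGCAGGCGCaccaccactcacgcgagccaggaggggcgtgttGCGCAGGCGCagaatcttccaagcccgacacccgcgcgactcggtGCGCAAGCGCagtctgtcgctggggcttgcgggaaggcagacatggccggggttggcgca
Cycs, chr6:50566520-50566819, minus strand: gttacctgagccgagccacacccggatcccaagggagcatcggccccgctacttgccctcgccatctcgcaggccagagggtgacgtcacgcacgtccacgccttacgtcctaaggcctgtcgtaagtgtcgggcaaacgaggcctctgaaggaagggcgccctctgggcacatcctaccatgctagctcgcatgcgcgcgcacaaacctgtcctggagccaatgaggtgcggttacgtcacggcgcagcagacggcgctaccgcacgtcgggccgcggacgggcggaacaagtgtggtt

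Among the 31 windows of genes higher in Th17 than in naive cells, 6 held the NRF1 letters (19.35%), 10 the ETS letters (32.26%) and 3 the YY1 letters (9.677%). Among the 35 windows of genes without a call, these numbers were 11 (31.43%), 5 (14.29%) and 7 (20%). At least 1 of the 3 was present in 51.61% of the windows of higher genes and in 57.14% of those without a call. Among the 7 windows of lower genes it was present in 3 (42.86%). A match is a description of these letters only, and its relation to the changes was not tested. Transcripts of 2 of the factors themselves fell from naive to Th17: Nrf1, from 120 and 120 CPM to 74.8 and 77.8 (log2 fold change -0.65, adjusted p = 3.11e-07), and Yy1, from 204 and 169 CPM to 164 and 149 (-0.25, adjusted p = 0.0154). Gabpa, the DNA-binding GABP chain, had 168 and 123 CPM in naive cells and 154 and 142 in Th17 (0.03, adjusted p = 0.81).

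Levels between genes were compared per length, on the deposited RPKM. Over the 8 libraries the highest means were those of Cox4i1, the regulatory subunit 4 of cytochrome c oxidase, at 362 RPKM, and of the beta and alpha chains of the ATP synthase head, Atp5b at 265 and Atp5a1 at 239 RPKM. At the low end, Atp5g2 was listed at 0 although it had 78 counts over the 8 libraries, Atp5l had a mean of 0.310 RPKM and Cox6b2 0.361. Of their transcript stretches of 50 bases, Atp5g2 shares 36.7% and Atp5l 68.5% with other genes, and Cox6b2 none. What such sharing does to these levels was not tested. In Th17 cultures the median was 34.0 RPKM for complex I, 52.6 for complex II, 60.1 for complex III, 66.2 for complex IV and 37.9 for complex V. The 4 complex II genes lay close together, from 46.5 (Sdha) to 67.0 RPKM (Sdhb). Complex I genes ran from 1.31 (Ndufab1) to 234 RPKM (Ndufa6), and complex IV genes from 0.376 (Cox6b2) to 392 (Cox4i1).

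Most subunit transcripts that changed were higher in Th17 cultures than in naive cells, Cycs being the clearest exception. Together the subunit genes held 0.584 and 0.663% of gene counts in naive cells. They held 0.789 and 0.767% in plain Th17 cultures, 0.767 and 0.776% after PAM3CSK4, and 0.792 and 0.757% after biglycan. All 6 cultured libraries were above both naive libraries, and the cultures overlapped each other. The naive libraries also differed between themselves: of 78 tested subunit genes, 64 were higher in replicate 2 than in replicate 1, with a median log2 difference of 0.15, while 50.4% of all tested genes were higher there. In the other groups the median difference between replicates was at most 0.06 in size. By complex, the share for complex I went from 0.157 and 0.179% to 0.230 and 0.228%, and that for complex V from 0.229 and 0.261% to 0.302 and 0.291%. The share of Cycs went the other way, from 0.00147 and 0.00141% to 0.000543 and 0.000490%.

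**Figure D1:**
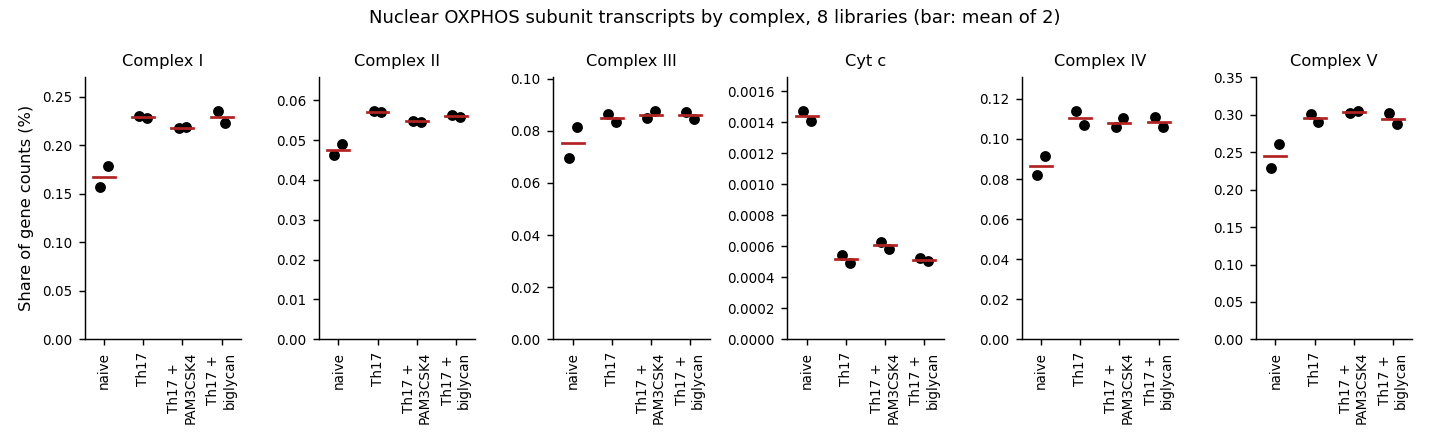
Share of gene counts (%, linear axes from 0, each panel with its own scale) held by the subunit genes of each complex in the 8 libraries. Points are libraries and bars the mean of 2. All cultured libraries lie above both naive libraries for complexes I, II, III, IV and V, and below them for Cycs.

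Genes were tested with edgeR across all 11629 genes that passed the count filter, and called at a Benjamini-Hochberg adjusted p under 0.05. Of the 79 subunit genes 78 were tested, Cox6b2 with 20 counts being the exception. In Th17 against naive cells 35 were higher, 44.9% of those tested, where 37.8% of all tested genes were called higher. Only 7 were lower, or 8.97%, where 34.4% of all tested genes were called lower, and 36 had no call. The median log2 fold change was 0.24 over the subunit genes and 0.035 over all tested genes. One naive library decided the excess of higher genes: without naive replicate 1, 26 were higher, 33.3% of those tested against 35.4% of all tested genes, and the median was 0.145 (0.314 without naive replicate 2). The lower genes numbered 7 without naive replicate 1, beside 32.7% of all tested genes. Changes were small: 12 genes rose by at least 1.5-fold, and the standard deviation of the log2 fold changes was 0.49 over the subunit genes and 2.07 over all. Both Th17 libraries exceeded both naive libraries for 46 subunit genes, against 43.9% of all tested genes, and lay below both for 9, against 40.1%.

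**Figure D2:**
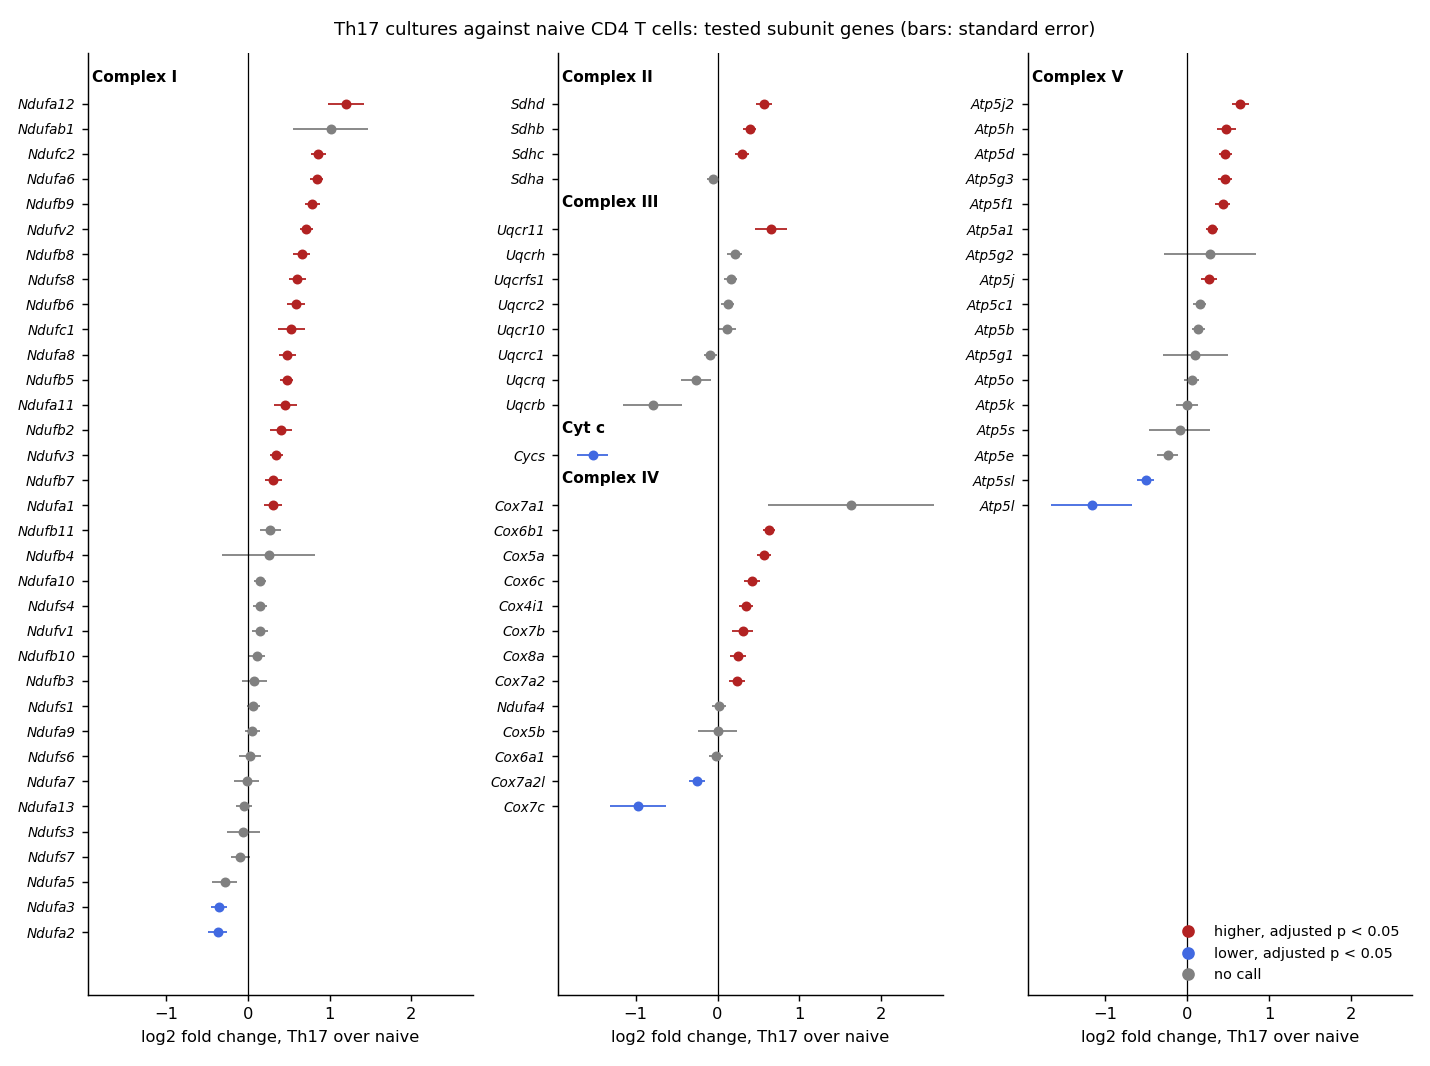
Log2 fold change of Th17 over naive (x axis) for the tested subunit genes reported here, by complex. Points are fitted values and bars the standard error; red marks higher genes, blue the 7 lower genes and gray no call. Cycs, at -1.53, lies farthest to the left.

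In complex I, 17 of 35 genes were higher (48.6%), 2 lower (5.71%) and 16 had no call. Of all tested genes 37.8% were called higher and 34.4% lower. The complex I median log2 fold change was 0.31 (0.177 without naive replicate 1). Ndufa6, an accessory subunit of the peripheral arm, had 94.4 and 106 CPM in naive cells and 185 and 175 in Th17, with 149 and 163 under PAM3CSK4 and 170 and 162 under biglycan. No cultured library came near the naive ones, and the fold of Th17 over naive was 1.79 (log2 0.84 ± 0.09, standard error, adjusted p = 1.94e-08). Ndufa12, also accessory, rose from 8.51 and 4.30 to 14.4 and 14.5 CPM (1.21 ± 0.22, adjusted p = 6.31e-05). Its naive libraries differed by more than its Th17 libraries, and its log2 fold change ran from 0.76 to 1.75 over the other fits of the counts.

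Among catalytic core subunits of complex I, Ndufv2 and Ndufs8 rose, and Ndufv1, Ndufs1, Ndufs3 and Ndufs7 had no call, these 4 between -0.09 and 0.15 on the log2 scale. Ndufv2, an iron-sulfur subunit of the NADH-oxidizing tip, went from 74.8 and 82.2 to 132 and 127 CPM (0.72 ± 0.08, adjusted p = 1.43e-07). Ndufv1, which binds NADH and FMN beside it, had 69.0 and 79.4 CPM in naive cells and 83.0 and 81.7 in Th17 (0.15 ± 0.10, adjusted p = 0.193). The difference between such partner subunits was not itself tested. Ndufs8, an iron-sulfur subunit near the ubiquinone site, went from 39.7 and 45.8 to 68.5 and 61.7 CPM (0.60 ± 0.10). Of the 10 Ndufb genes, which code for the membrane arm, 6 rose, none fell and 4 had no call. The shares of all tested genes were 37.8% higher and 34.4% lower. Ndufb9 stood at 0.79 ± 0.09 (48.2 and 53.7 to 91.7 and 85.0 CPM). The membrane-arm subunit Ndufc2 rose by 0.87 ± 0.10 on the log2 scale, from 44.1 and 45.3 to 86.0 and 76.6 CPM. Further higher genes of complex I, among them Ndufb8, Ndufb6, Ndufc1, Ndufa8, Ndufb5, Ndufa11, Ndufb2, Ndufv3, Ndufb7 and Ndufa1, lay between 0.31 and 0.66. Ndufa11, Ndufb2, Ndufb7, Ndufc1 and Ndufa1 lost their calls without naive replicate 1. Ndufab1, the acyl carrier protein, had 8 and 11 counts in naive cells and 20 and 38 in Th17 (1.01 ± 0.46, adjusted p = 0.0525).

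Both complex I genes that fell were small accessory subunits. Ndufa2 went from 65.1 and 82.7 CPM to 61.0 and 53.7 (-0.37 ± 0.11, adjusted p = 0.00628), and Ndufa3 from 60.0 and 66.5 to 46.4 and 53.3 (-0.35 ± 0.10, adjusted p = 0.0044). For both, the groups did not overlap, but the gap was narrow. Without naive replicate 2 or without Th17 replicate 2 the call of Ndufa2 was lost, and without Th17 replicate 1 that of Ndufa3, with adjusted p up to 0.179 and 0.0725.

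In complex II, succinate dehydrogenase, 3 of 4 genes were higher (75%, beside 37.8% of all tested genes). The membrane anchor Sdhd went from 73.2 and 92.7 to 123 and 124 CPM (0.57 ± 0.09, adjusted p = 1.72e-05). The iron-sulfur subunit Sdhb went from 89.3 and 89.2 to 116 and 118 (0.39 ± 0.08, adjusted p = 0.000307), and the other anchor, Sdhc, from 72.3 and 73.4 to 88.5 and 90.3 (0.30 ± 0.08, adjusted p = 0.00366). Sdha, the flavoprotein that oxidizes succinate, had 249 and 242 CPM in naive cells and 242 and 231 in Th17 (-0.05 ± 0.07, adjusted p = 0.531).

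In complex III a single gene of 8 was called higher and none lower, beside 37.8% and 34.4% of all tested genes. Uqcr11, a small subunit, went from 10.6 and 13.3 to 18.9 and 18.9 CPM (0.65 ± 0.19, adjusted p = 0.00515). The core proteins Uqcrc1 and Uqcrc2 and the Rieske iron-sulfur protein Uqcrfs1 lay between -0.09 and 0.16 on the log2 scale, with no call. Uqcr11 shares 10.9% of its 50-mers (stretches of 50 bases) with another gene, and Uqcrb 43.2% with other genes. Uqcrb had 2.84 and 3.67 CPM in naive cells and 2.28 and 1.45 in Th17 (-0.79 ± 0.37, adjusted p = 0.0576). Cyc1, the cytochrome c1 of the complex, which the symbols used do not catch, rose from 42.3 and 53.5 to 58.4 and 59.5 CPM (0.29 ± 0.10, adjusted p = 0.0163), a call lost without naive replicate 1 or without Th17 replicate 2.

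Cycs, which carries electrons from complex III to complex IV and triggers the apoptosome when released, fell farthest. It had 15.4 and 14.3 CPM in naive cells and 5.40 and 4.84 in plain Th17 cultures. PAM3CSK4 cultures had 6.20 and 5.88 CPM, and biglycan cultures 5.15 and 4.97. Every cultured library lay far below both naive ones, and Th17 was 2.88-fold below naive (log2 -1.53 ± 0.19, adjusted p = 5.35e-07). The value ran from -1.61 to -1.46 over the other fits of the counts, but was -0.70 on the deposited RPKM and -0.99 after centring those. Of its transcript 50-mers, 28.5% also occur in other genes, 76 in number. What this sharing does to its level was not tested. Hccs, which attaches heme to cytochrome c, rose from 62.3 and 50.4 to 80.6 and 78.7 CPM (0.50 ± 0.10, adjusted p = 0.000179).

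In complex IV, cytochrome c oxidase, 7 of 13 tested genes were higher (53.8%), 2 lower (15.4%) and 4 had no call. Of all tested genes 37.8% were called higher and 34.4% lower. Cox6b1, a subunit facing the intermembrane space, went from 97.7 and 102 to 154 and 156 CPM (0.63 ± 0.08, adjusted p = 4.28e-07). Cox5a went from 60.8 and 65.9 to 96.5 and 91.2 (0.57 ± 0.09, adjusted p = 5.97e-06). The other higher genes, Cox6c, Cox4i1, Cox7b, Cox8a and Cox7a2, lay between 0.24 and 0.43, and Cox7b, Cox8a and Cox7a2 lost their calls without naive replicate 1. Cox4i1 itself went from 283 and 321 to 402 and 369 CPM (0.35 ± 0.09, adjusted p = 0.00107). The genes that fell were Cox7c, from 5.97 and 4.68 to 3.63 and 1.64 CPM (-0.97 ± 0.34, adjusted p = 0.0157), and Cox7a2l, which links complexes III and IV in supercomplexes, from 58.5 and 63.3 to 52.4 and 49.8 (-0.25 ± 0.10, adjusted p = 0.0282). On the deposited RPKM their log2 fold changes were 0.26 and 0.03, where the median of all tested genes was shifted by 0.296. After centring each library, Cox7c had -0.04 with no call (adjusted p = 0.82 in limma) and Cox7a2l -0.27 with a call (adjusted p = 0.0403). Cox7c also lost its call without naive replicate 1 or Th17 replicate 2, and Cox7a2l without naive replicate 2 or Th17 replicate 2.

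Tissue isoforms of complex IV were near the floor of counting. The heart and muscle isoform Cox7a1 had 1 count in each naive library, 5 in each Th17 library, 12 and 19 after PAM3CSK4 and 13 and 9 after biglycan, and its Th17 level was 0.782 RPKM beside 73.4 for the common isoform Cox7a2. The Th17 over naive ratio of Cox7a1 was 3.29 with a 95% Poisson interval of 0.702 to 30.9, which covers counting error only. The testis isoform Cox6b2 had 1 count in naive cells and 5 in Th17, a ratio of 3.29 with an interval of 0.368 to 156. Cox4i2, the lung and hypoxia isoform of subunit 4, had 4 and 2 counts with PAM3CSK4 and none in the other 6 libraries. Cox6a1, Cox8a and Ndufa4 carried nearly all counts of their isoform sets, at 101, 87.1 and 94.5 RPKM in Th17.

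In complex V, 7 of 17 genes were higher (41.2%), 2 lower (11.8%) and 8 had no call. The higher share was near the 37.8% of all tested genes, and the lower share was below their 34.4%. Atp5j2, a membrane subunit, went from 41.8 and 50.1 to 75.4 and 69.0 CPM (0.65 ± 0.11, adjusted p = 1.77e-05). Atp5d, the delta subunit of the central stalk, went from 102 and 109 to 152 and 139 (0.47 ± 0.08, adjusted p = 3.4e-05). The remaining higher genes, Atp5h, Atp5g3, Atp5f1, Atp5a1 and Atp5j, lay between 0.26 and 0.48, and Atp5j lost its call without naive replicate 1 or Th17 replicate 1. Atp5a1 went from 848 and 888 to 1084 and 1052 CPM (0.30 ± 0.08, adjusted p = 0.00152). Atp5b had 781 and 864 CPM in naive cells and 921 and 883 in Th17 (0.13 ± 0.08, adjusted p = 0.135). Of the 5 genes of the head and central stalk, Atp5d and Atp5a1 rose and Atp5b, Atp5c1 and Atp5e had no call. Atp5e, the epsilon subunit, had 106 and 159 CPM in the naive libraries and 115 and 110 in Th17. Of the 10 genes of the membrane part and peripheral stalk, 5 rose, 1 fell and 4 had no call. Among the genes of the c ring, Atp5g3 rose from 105 and 118 to 161 and 145 CPM, and Atp5g1 and Atp5g2 had no more than 3.06 CPM in any library. Atp5g1 and Atp5g2 share 11.1% and 36.7% of their 50-mers with other genes and Atp5g3 none, so their levels cannot be compared directly.

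The lower genes among those listed for complex V were Atp5sl and Atp5l. Atp5sl and Atp5s are named for ATP synthase but are not subunits of it, and are listed there by symbol only. Atp5sl, which RefSeq names Dmac2 and which is known for complex I assembly rather than as an ATP synthase subunit, went from 50.3 and 53.7 to 34.5 and 38.8 CPM (-0.51 ± 0.10, adjusted p = 0.000154). Atp5l, subunit g, had 24 and 10 counts in the naive libraries and 10 and 13 in Th17 (-1.17 ± 0.49, adjusted p = 0.0398), and lost its call in 8 of 15 other fits of the counts.

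**Figure D3:**
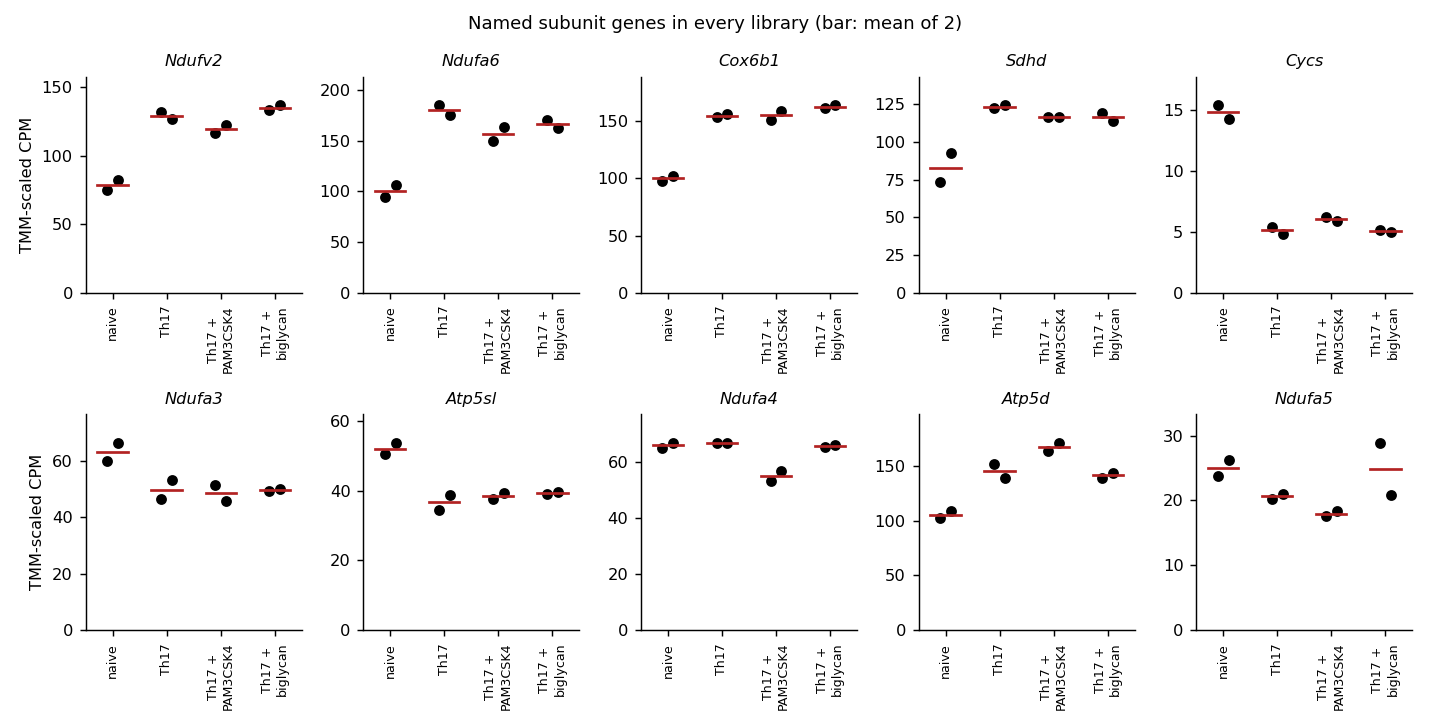
TMM-scaled CPM (linear axes from 0, each panel with its own scale) of 10 named subunit genes in every library. Points are libraries and bars the mean of 2. Ndufv2 stands at 74.8 and 82.2 in naive cells and at 116 or more in all cultures, and Cycs at 14.3 or more in naive cells and at 6.20 or less in all cultures.

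Many of these genes have processed pseudogenes, and reads placed in several sites were not counted. Of the 79 genes, 16 share at least 10% of their 50-mers with another gene (GENCODE transcripts, GRCm38), in all but Cox5b including a pseudogene. Their median count over the 8 libraries was 594, against 5952 for the other 63. Of these 16, 4 were higher, 4 lower and 8 without a call. Of the other 62 tested, 31 were higher, 3 lower and 28 without a call. The shares of all tested genes were 37.8% higher and 34.4% lower. Among the 16, the higher genes were Ndufa12 (26.2%), Uqcr11 (10.9%), Atp5h (36.9%) and Atp5f1 (22.5%). The lower ones were Atp5l (68.5%), Cycs (28.5%), Cox7c (23.0%) and Cox7a2l (17.8%). The lower genes without such sharing were Ndufa2, Ndufa3 and Atp5sl. Of 14 genes under 1000 counts, 11 share at least 1 50-mer. Whether a lost or gained placement contributes to any change was not tested.

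**Figure D4:**
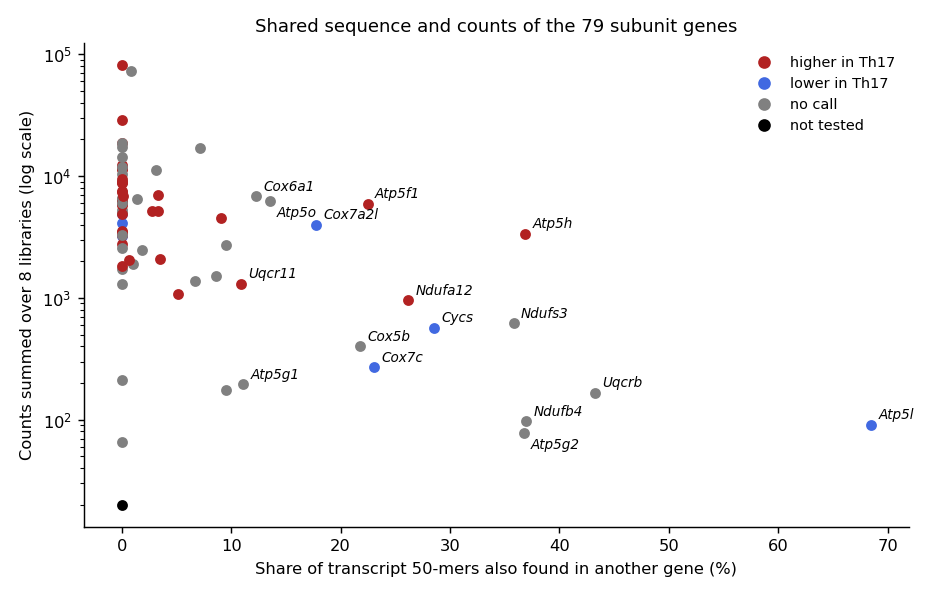
Counts summed over 8 libraries (log scale) against the share of transcript 50-mers also found in another gene (%), one point per subunit gene, colored by the Th17 against naive call. Names mark the 16 genes at 10% or more, among them Cycs at 28.5% and Atp5l at 68.5%.

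Other genes of the pathway moved in both directions between naive and Th17 cells. Of 41 tested assembly factors 12 were higher (29.3%) and 14 lower (34.1%), neither share above that of all tested genes, 37.8% and 34.4%. Those for complex I included Tmem126b (12.3 and 13.3 to 38.8 and 33.8 CPM, log2 1.51) and Acad9 (34.4 and 33.8 to 75.7 and 79.0 CPM, 1.18) among the higher, and Ndufaf4 (42.3 and 45.5 to 18.9 and 17.99 CPM, -1.25) among the lower. Selrc1, a complex IV assembly factor also called Coa7, fell by 1.35 on the log2 scale. The ATP synthase inhibitor Atpif1 rose from 13.3 and 14.2 to 61.2 and 69.7 CPM (2.25 ± 0.12, adjusted p = 5.38e-13), more than any of the 78 subunit genes. Of the other small ATP synthase proteins, 2010107E04Rik rose by 0.22 on the log2 scale, a call lost in 4 of 16 other fits of the counts, and Usmg5 had no call.

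Of 18 regulators of mitochondrial biogenesis 10 were lower (55.6%) and none higher, where 34.4% of all tested genes were lower and 37.8% higher. By an unadjusted edgeR p under 0.05, none of the regulators was higher either. Pprc1, a PGC-1 related coactivator, fell from 70.6 and 75.3 to 24.0 and 23.8 CPM (-1.61 ± 0.11, adjusted p = 2.4e-11), and Polg2, the accessory subunit of the mitochondrial DNA polymerase, from 45.6 and 47.9 to 14.7 and 19.2 CPM (-1.47). Of 13 coenzyme Q genes 7 were lower (53.8%), with Coq10b at -1.74 and Coq5 at -0.76. Another 3 were higher (23.1%), with Coq3 at 1.03 and Coq4 at 1.01. Coq4 had no call when naive replicate 1 was left out. Of 18 genes of the TCA cycle and pyruvate dehydrogenase 5 rose (Dld 0.58, Sucla2 0.47) and 5 fell (Idh2 -0.97, Ogdh -0.61), 27.8% each way and so below the shares of all tested genes.

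Of the pyruvate dehydrogenase kinases, which inactivate pyruvate dehydrogenase, Pdk1 fell from 686 and 668 to 264 and 272 CPM (-1.34 ± 0.07, adjusted p = 1.27e-12), and Pdk3 rose from 24.5 and 24.7 to 67.0 and 60.8 (1.38 ± 0.10). Pdk2 rose by 0.67, a call lost without naive replicate 1 or Th17 replicate 2. Of 11 carriers and pores 4 rose (36.4%) and 2 fell (18.2%), neither share above that of all tested genes, 37.8% and 34.4%. Those that rose included the ADP/ATP carrier Slc25a4 (85.0 and 82.9 to 268 and 254 CPM, 1.64) and Vdac1 (1.06). Those that fell were Mcu (-0.78) and Letm1 (-0.28, but 0.03 on the deposited RPKM and -0.27 after centring). Of 7 antioxidant genes Gpx1 rose by 0.72 and Prdx5 by 0.22, and Txn2 fell by 0.40 on the log2 scale. That is 28.6% higher and 14.3% lower, both below the shares of all tested genes. Prdx5 lost its call in 12 of 16 other fits.

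Cultures with PAM3CSK4 addressed TLR2 stimulation during polarization. Of the 78 tested, none was called higher and 1 lower, where 5.21% of all tested genes were called higher and 4.78% lower. The unadjusted edgeR p was under 0.05 for 2 upward and 4 downward, and for 1326 upward and 1345 downward of the 11629 tested genes. Ndufa4, a complex IV subunit once assigned to complex I, had 66.7 and 67.0 CPM in Th17 and 53.3 and 56.9 with PAM3CSK4, beside 65.3 and 67.0 in naive cells and 65.6 and 66.3 with biglycan. Both PAM3CSK4 libraries lay below the 6 others. The log2 fold change against Th17 was -0.28 ± 0.08 (adjusted p = 0.0374), but DESeq2 made no call and leaving out any 1 of the 6 cultured libraries ended the call.

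The next smallest p-values missed the threshold. Cox7a1, with 31 counts over both PAM3CSK4 libraries and 10 over both Th17 libraries, had a log2 fold change of 1.51 ± 0.55 (adjusted p = 0.0922). Atp5d had 164 and 171 CPM against 152 and 139 (0.20 ± 0.08, adjusted p = 0.111). Over all 78 subunit genes, 9 had both PAM3CSK4 libraries above both Th17 libraries and 16 below, against 26.5% of tested genes each way. Their median log2 fold change was -0.04, and for all tested genes it was -0.002. The subunit median hung on single libraries. It was -0.003 without Th17 replicate 1 and 0.001 without PAM3CSK4 replicate 3, and -0.052 without Th17 replicate 2 and -0.057 without PAM3CSK4 replicate 4. Among the complex I genes, 25 of 35 had a negative log2 fold change, as had 5866 of all 11629 tested genes. For 12 of the 35 both PAM3CSK4 libraries lay below both Th17 libraries. The complex I median was -0.06, with a lowest value of -0.36 (Ndufb4, 97 counts in all). None of the 35 was called in the edgeR fit of all 8 libraries or by DESeq2. By unadjusted edgeR p under 0.05, 3 were lower and none higher, beside 1345 lower and 1326 higher of all 11629 tested genes.

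In the related lists, PAM3CSK4 cultures had lower Atpif1 (53.2 and 50.2 CPM against 61.2 and 69.7, -0.34 ± 0.09, adjusted p = 0.0234), lower Acad9 (-0.41, adjusted p = 0.00272) and lower Pdha1, the E1 alpha subunit of pyruvate dehydrogenase (-0.31, adjusted p = 0.036). The calls of Atpif1 and Pdha1 ended when single libraries were left out. Of 18 biogenesis regulators 3 were higher: Myc (112 and 114 CPM against 71.2 and 56.0, 0.82 ± 0.10, adjusted p = 2.85e-05), Pprc1 (37.1 and 35.9 against 24.0 and 23.8, 0.61 ± 0.11, adjusted p = 0.000981) and Polg (0.25, a call lost in 7 of 15 other fits of the counts). Pprc1 thus remained under its naive level of 70.6 and 75.3 CPM. The share of regulators called higher, 16.7%, stood beside 5.21% of all tested genes. The Th17 markers Il17a and Il17f were 0.81 and 0.80 higher in the same libraries, and their part in these differences was not tested.

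**Figure D5:**
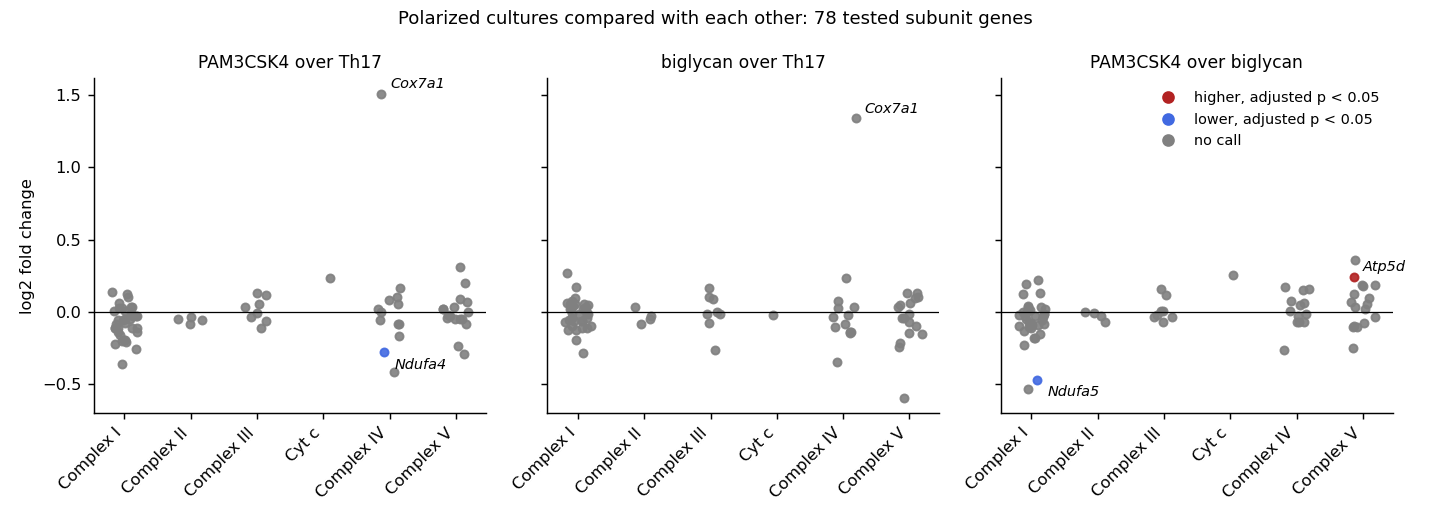
Log2 fold change (y axis) of the 78 tested subunit genes by complex for PAM3CSK4 over Th17, biglycan over Th17 and PAM3CSK4 over biglycan. Each point is a gene, spread sideways for visibility; called genes are colored. Called genes are Ndufa4 (-0.28), Ndufa5 (-0.47) and Atp5d (0.24), and Cox7a1 stands apart at 1.51 and 1.34 without a call.

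Biglycan moved no subunit gene past the threshold. None of 78 was called higher and none lower, and of all tested genes 0% were called in either direction. DESeq2 also called none. By unadjusted edgeR p under 0.05, 1 subunit gene was higher and none lower, beside 278 higher and 229 lower of all 11629 tested genes. That gene was Cox7a1, with 22 counts against 10 over both libraries of each group (log2 1.34 ± 0.59, adjusted p = 1 in edgeR). The ratio of these counts was 2.57, with a 95% Poisson interval of 1.17 to 6.09. Ndufa5 had 28.9 and 20.8 CPM with biglycan and 20.3 and 21.0 in Th17 (0.27 ± 0.14, adjusted p = 1), and Atp5f1 75.6 and 69.7 against 81.4 and 79.4 (-0.15 ± 0.09, adjusted p = 1). Both biglycan libraries exceeded both Th17 libraries for 12 subunit genes, against 17.3% of tested genes, and lay below for 17, against 16.9%. The biglycan and PAM3CSK4 comparisons share the Th17 libraries. For Cycs biglycan gave -0.02 ± 0.22. With 2 libraries a group, the lack of a call does not exclude differences larger than these errors. Cox7a1, at 1.34 ± 0.59, was not called.

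Set directly against biglycan, PAM3CSK4 cultures had 1 subunit gene higher and 1 lower, where 5.66% and 5.88% of all tested genes were called. Atp5d had 164 and 171 CPM with PAM3CSK4 and 139 and 144 with biglycan (0.24 ± 0.08, adjusted p = 0.0478). Ndufa5, an accessory subunit of complex I, had 17.6 and 18.4 CPM with PAM3CSK4 and 28.9 and 20.8 with biglycan (-0.47 ± 0.14, adjusted p = 0.0395). PAM3CSK4 libraries lay above both biglycan libraries for 13 subunit genes, against 29.8% of all tested genes, and below both for 15, against 29.1%. One biglycan library decided the value of Ndufa5: without biglycan replicate 7 the log2 fold change was -0.22 and the adjusted p 0.586. Ndufa4 (-0.26, adjusted p = 0.0513) followed just outside the threshold. Atp5d lost its call in 9 of 15 other fits of the counts. In the related lists Atpif1, Acad9, Pdha1 and Pdk2 were lower and Myc, Pprc1 and Polg higher with PAM3CSK4, the PAM3CSK4 libraries being the same as in the comparison with Th17. Over the 15 other fits of the counts Acad9 lost its call in 5, Pdk2 and Polg in 4 each, and Atpif1 and Pdha1 in 3 each, each time with single libraries left out or, for Acad9 and Pdk2, also with DESeq2, while Myc and Pprc1 kept theirs.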

How the data were processed

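RNA of 8 mouse libraries was sequenced after a stranded mRNA kit. Per the submitters' processing notes, Bowtie2, HTSeq and the mm9 build were used (tool versions, annotation and strand option: not given in the sources used here). Whether reads of overlapping and antisense genes were told apart is therefore not known. The authors deposited raw gene counts, RPKM values, and the percent of reads assigned to mitochondrial and ribosomal RNA. Members and lists were chosen with earlier results of these data known. Counts were fitted with edgeR 4.0.16 (filterByExpr, TMM, quasi-likelihood, all 8 libraries, 4 residual degrees of freedom) in R 4.3.3, with Benjamini-Hochberg adjustment over 11629 genes; standard errors are the log2 fold change over the root of F. Genes named are, per complex and comparison, the 2 called upward and the 2 called downward with the smallest p; all where fewer than 5 are called; where none, the 3 smallest p; isoform sets, and the 3 highest and 3 lowest RPKM. Others, such as partner subunits, Nrf1, Yy1, Gabpa and the genes next to a threshold, were chosen after their values were seen. 1 gene is not reported here by name. Rows without a gene name were left out. Alternatives were DESeq2 1.42.0, limma 3.58.1 on log2(RPKM + 1), other scalings and filters, and each library left out. Replicates of each group differed by more than sampling noise. The code was tested on simulated data.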

Additional observations from a re-analysis of the deposited data

How the results depend on the processing

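Of the 42 subunit genes called in Th17 against naive cells, 28 kept direction and call in every other fit of the counts, 14 lost the call in at least 1, and none reversed. The count of higher genes, 35, was 30 with DESeq2, 44 without TMM and 57 with limma on the deposited RPKM (32 after centring each library), and 26 to 38 with single libraries left out, lowest without naive replicate 1 (33.3% of subunit genes, against 35.4% of all). On uncentred RPKM the median of all tested genes is shifted by 0.296. The count of lower genes, 7, was 5 with DESeq2, 6 without TMM, 1 on RPKM (5 centred), 3 without genes that share 50-mers, and 3 to 7 with single libraries left out, lowest without Th17 replicate 2. On uncentred RPKM Cox7a2l (0.029), Cox7c (0.259) and Letm1 (0.03) reversed; centred, they were -0.268, -0.038 and -0.267. Same-numbered naive and Th17 libraries share only a number (correlation of deviations 0.055); with the replicate block 37 genes were higher and 7 lower.

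In PAM3CSK4 against Th17 the 0 higher became 1 on RPKM, centred or not; the 1 lower became 0 with DESeq2 and on RPKM, and 0 to 2 with single libraries left out. In PAM3CSK4 against biglycan the 1 higher became 0 with RLE factors, without TMM, with DESeq2 and on RPKM, and 0 to 1 with single libraries left out. The 1 lower became 2 with RLE factors, 3 without TMM, at 10 CPM or with only the groups compared, 0 with DESeq2 and on RPKM, and 0 to 3 with single libraries left out. Biglycan against Th17 gave 0 in every alternative. The cause of these shifts was not tested. Where a group is left with 1 library, it is assumed to vary like the others. The RPKM and 50-mer alternatives were chosen after seeing the data. The 14 genes under 1000 counts rest on few reads, and 11 of them share at least 1 50-mer with other genes. Low depth and lost placement were not told apart for them.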
